A study of Homo sapiens with 12 samples.

Results

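The 37 genes of the human mitochondrial genome were examined in embryoid bodies with and without depletion of METTL14. They were chosen by symbol, as every gene whose name starts with MT-, and comprise 13 mRNAs, 2 rRNAs and 22 tRNAs among the 65969 gene identifiers of the deposited table. Nuclear copies of mitochondrial genes, whose symbols lack the hyphen, were left out. All 13 mRNAs, both rRNAs and 17 of the 22 tRNAs had enough counts to be tested, beside 24898 genes tested in all.

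Total RNA was sequenced in 12 libraries from day 10 embryoid bodies, rounded clusters of differentiating pluripotent cells. The cells were from the established human embryonic lines H1 and MEL1, and the labels give the cell type of every library as hESC. All cells were transduced with a lentiviral vector for a doxycycline-inducible short hairpin RNA and selected with puromycin, and all were kept with doxycycline at 2 µg/ml for 10 days after seeding at 500 cells per microwell. The hairpins KD1, KD2 and KD3 target METTL14, which is needed for the addition of N6-methyladenosine to RNA in the nucleus, and SCR is the control hairpin, which the controls received with the same drug treatment. H1 gave 2 libraries each of SCR, KD1, KD2 and KD3. MEL1 gave 1 SCR library, 2 KD1 libraries and 1 KD2 library. The labels do not say whether libraries of a group came from separate cultures, so p-values measure only the spread between these libraries, which may be technical. In bulk RNA, fewer cells of a type and less RNA per cell cannot be told apart.

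Mitochondrial DNA is a small circular genome that is transcribed from both strands into long precursor RNAs. Most mRNAs and both rRNAs come from the transcript of the heavy strand, and MT-ND6 is the mRNA of the light strand. The tRNAs lie between the longer genes, and their excision releases most mRNAs and the rRNAs. The mRNAs encode core subunits of complexes I, III, IV and V of oxidative phosphorylation, whose other subunits are encoded in the nucleus and imported. The transcripts are made and kept inside mitochondria by proteins such as the polymerase POLRMT, the promoter factor TFAM, the elongation factor TEFM and the mRNA-binding protein LRPPRC.

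Adjacent mitochondrial genes can share bases, which bears on how reads are divided between them. MT-ATP8 and MT-ATP6 share 46 bases of a common mRNA, at chrM:8527-8572 on the plus strand of GRCh38 (GENCODE release 29). The stretch is shown because a result below concerns the balance of these genes. Capitals mark the start codon of MT-ATP6 and the stop codon of MT-ATP8.
MT-ATP8 and MT-ATP6 overlap: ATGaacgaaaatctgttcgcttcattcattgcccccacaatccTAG
MT-ND4L and MT-ND4 also lie on a common mRNA and share 7 bases, which are in capitals in the last 40 bases of MT-ND4L (chrM:10727-10766, plus strand).
MT-ND4L, 3′ end: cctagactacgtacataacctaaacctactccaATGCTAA
The mitochondrial tRNA for phenylalanine, MT-TF, is the first gene after the heavy-strand promoters and directly precedes MT-RNR1. It is shown because it was the mitochondrial transcript called lower when all hairpins were pooled. In the main fit it was not called with any single hairpin in H1. The 71 bases of the gene (chrM:577-647, plus strand) carry the anticodon in capitals.
MT-TF: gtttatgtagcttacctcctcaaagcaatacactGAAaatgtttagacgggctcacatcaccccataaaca

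The knockdown and the libraries were checked first. METTL14 was at 29.8 and 43.8 CPM (estimated counts per 1000000 of the library, after TMM scaling of library sizes) in H1 SCR, 11.1 and 10.99 in KD1, 17.7 and 14.8 in KD2, and 8.90 and 13.5 in KD3. In MEL1 it was at 49.9 CPM with SCR, 8.03 and 5.94 with KD1 and 8.95 with KD2. Every knockdown library was thus below every SCR library. The MEL1 SCR library was the shallowest, with 15963241 estimated counts, and the other 11 had 36609628 to 43508287. Libraries also differed in how a gene's level related to the GC content of its transcript. Over 15581 genes, GC content was set against the deviation of a library from the mean of its own line. Values of H1 and MEL1 are therefore not on a common scale. Spearman's correlation was -0.56 in MEL1 SCR and 0.56 in the second H1 KD1 library. It was 0.22 and -0.42 in the H1 SCR libraries, 0.30 and 0.56 in KD1, -0.21 and 0.11 in KD2, and 0.01 and -0.51 in KD3. In the other MEL1 libraries it was 0.36 and 0.43 with KD1 and -0.06 with KD2. The mitochondrial mRNAs have GC contents of 39.6% to 47.7%.

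Mitochondrially encoded RNA took a larger share of every MEL1 library than of any H1 library. The 37 genes together held 6.79% of the estimated counts of MEL1 SCR, 4.82% and 5.80% of the KD1 libraries and 6.47% of KD2. In H1 they held 3.09% and 3.47% with SCR, 3.17% and 2.53% with KD1, 3.62% and 2.98% with KD2, and 2.99% and 3.38% with KD3. Counting error was small beside these differences: the 95% Wilson interval in MEL1 SCR, the shallowest library, was 6.78% to 6.80%. Such intervals cover counting error only, since reads made by PCR are not independent molecules.

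The 13 mRNAs made up most of this RNA. Their share was 4.08% to 5.65% of a MEL1 library and 1.92% to 2.97% of an H1 library, so the lines did not overlap. The rRNAs held 0.730% to 1.14% in MEL1 and 0.609% to 0.892% in H1, ranges that overlap. The ratio of mRNA to rRNA counts was therefore higher in MEL1, at 4.95 with SCR, 5.60 and 5.25 with KD1 and 6.71 with KD2, against 2.55 to 4.53 in the 8 H1 libraries. As log2 ratios, the mean mRNA share of MEL1 exceeded that of H1 by 1.11 at matched hairpins. On average, knockdown libraries stood below SCR by far less. The mean log2 difference was -0.13 in H1 and -0.23 in MEL1, beside a pooled SD of 0.18 within groups of 2 libraries. Single libraries differed: the first H1 KD2 library, at 2.97%, was above both H1 SCR libraries (2.45% and 2.72%). MEL1 KD2, at 5.63%, was near MEL1 SCR, at 5.65%. The labels do not say whether rRNA was depleted from these libraries. Named rRNA genes of the nucleus held 0.000158% to 0.00251% of the counts of a library. The part of any rRNA depletion in the mitochondrial rRNA levels, and so in the ratio of mRNA to rRNA, was not tested.

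**Figure D1:**
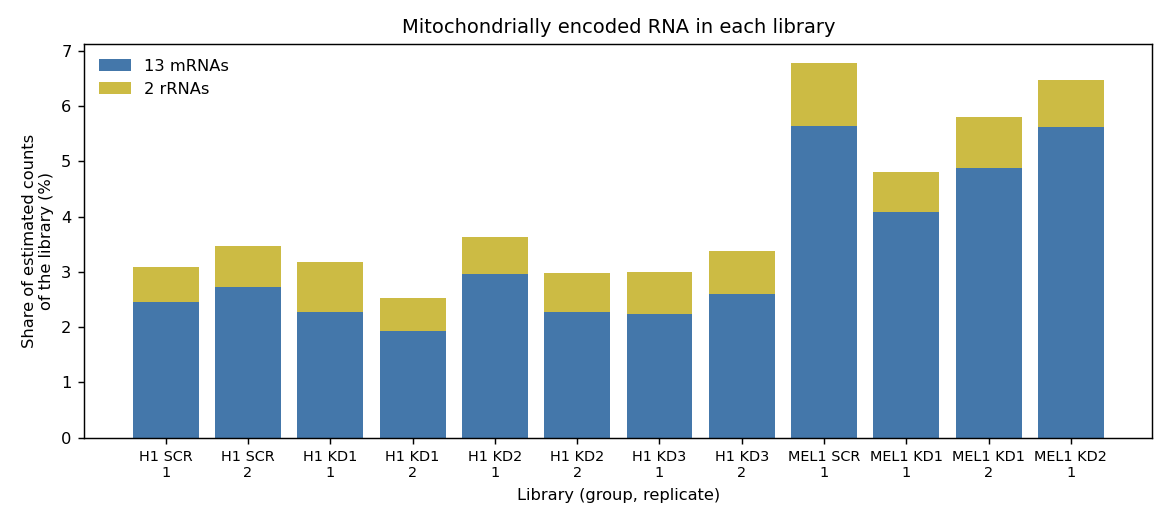
Stacked bars give the share of each library's estimated counts, in percent, held by the 13 mitochondrial mRNAs (blue) and the 2 mitochondrial rRNAs (yellow). The 4 MEL1 libraries reach 4.82% to 6.79% and the 8 H1 libraries 2.53% to 3.62%.

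The levels of the mRNAs differed widely within a library. On a per-length scale (CPM per kilobase of gene), the complex IV mRNAs were the most abundant: MT-CO2 had a median of 6710 in the 8 H1 libraries (4979 to 7981), MT-CO3 5256 (3726 to 7326) and MT-CO1 4097 (3520 to 4879). Complex IV is cytochrome c oxidase, which passes electrons to oxygen, and these 3 genes encode its catalytic core. The ranges of MT-CO2 and MT-CO3 overlap, so their order is within the spread of the libraries. MT-ATP6 (2663) and MT-ATP8 (1379), which encode subunits of the membrane part of ATP synthase, came next, with MT-ND4 (1376), MT-CYB (1221), MT-ND3 (1210), MT-ND2 (987), MT-ND4L (805), MT-ND1 (471) and MT-ND5 (377 CPM per kilobase) below them. MT-ATP8 and MT-ATP6 lie on a common mRNA, as do MT-ND4L and MT-ND4, so their values are not levels of separate mRNAs. The scale divides by the full length of the gene, and its effect on the order of short genes was not tested. MT-CYB encodes cytochrome b of complex III, and the MT-ND genes encode subunits of complex I, which takes electrons from NADH. MT-ND6, from the light strand, was lowest at 73.2 CPM per kilobase (57.1 to 170). The larger rRNA MT-RNR2 was at 3920 and the smaller, MT-RNR1, at 1020 CPM per kilobase.

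**Figure D2:**
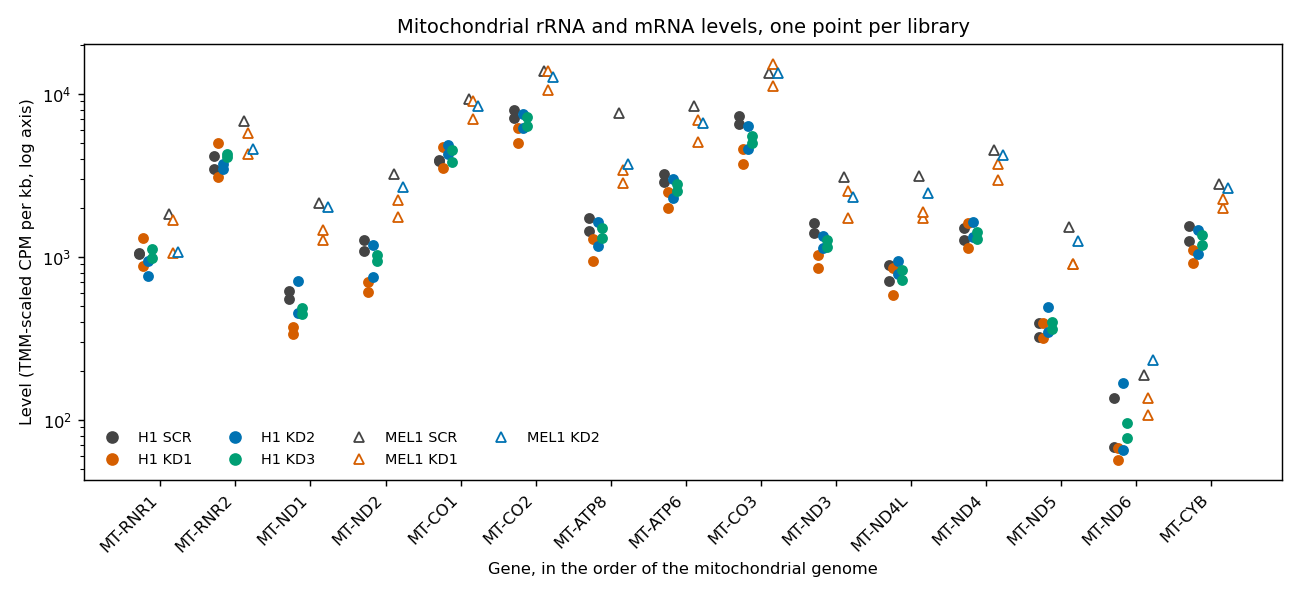
Each point is 1 library, with H1 as filled circles and MEL1 as open triangles, coloured by hairpin, and the log axis gives CPM per kilobase. For every mRNA except MT-ND6 the 4 MEL1 points lie above the 8 H1 points, while the rRNAs overlap.

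MEL1 held more of every mitochondrial mRNA than H1 at matched hairpins (SCR, KD1 and KD2). MEL1 SCR and MEL1 KD2 have 1 library each, so the p-values of this comparison take their spread from the other groups. Each side is 1 cell line. With edgeR's quasi-likelihood test and Benjamini-Hochberg adjustment, 20 of the 32 mitochondrial genes tested were called at an adjusted p under 0.05, all of them higher in MEL1. They were the 13 mRNAs, both rRNAs and 5 tRNAs, namely MT-TL1, MT-TV, MT-TI, MT-TT and MT-TP. The tRNA calls rested on few estimated counts, such as 0 to 14 a library for MT-TI and 4 to 48 for MT-TT. MT-TI was called in 17 of 20 alternative settings, MT-TP in 17 of 21 and the other 3 tRNAs in all 21. The background was high: 49.1% of all genes tested were called between the lines, 23.0% as higher in MEL1. For 12 of the 13 mRNAs all 4 MEL1 libraries lay above all 8 H1 libraries, which 12.3% of all genes did. The median log2 difference was 1.40 over the mRNAs and -0.09 over all genes tested.

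Complex I mRNAs included the largest differences. MT-ND1 was at 2034 CPM in MEL1 SCR, 1221 and 1392 in KD1 and 1934 in KD2. In H1 it ran from 322 to 679 CPM, with a median of 451, so the lowest MEL1 library stood well above the highest H1 library. The difference was 3.65-fold, a log2 of 1.87 (SE 0.12, edgeR adjusted p = 3.31e-07). MT-ND5 differed by 1.67 (adjusted p = 5.56e-07), MT-ND4L by 1.61 (1.17e-06), MT-ND4 by 1.50 (2.62e-06), MT-ND2 by 1.50 (3.86e-06) and MT-ND3 by 1.05 (2.20e-05) on the log2 scale, all edgeR adjusted p-values. MT-ND6 was at 99.6, 71.2, 56.2 and 123 CPM in MEL1 and at 30.0 to 89.0 in H1, so here the lines overlapped. Its log2 difference was 0.95 (SE 0.32, edgeR adjusted p = 0.0453).

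Outside complex I, the mRNAs of ATP synthase differed most in the mean over the matched hairpins. MT-ATP8 was higher by a log2 of 1.72 (SE 0.13, edgeR adjusted p = 1.33e-06) and MT-ATP6 by 1.40 (SE 0.12, 3.78e-06). The complex IV mRNAs differed by 1.30 (MT-CO3, SE 0.13), 1.04 (MT-CO1, SE 0.12) and 0.97 (MT-CO2, SE 0.12), with edgeR adjusted p-values of 1.15e-05 to 4.92e-05. MT-CO1 was at 14422 CPM in MEL1 SCR, 10829 and 13896 in KD1 and 13081 in KD2, against 5428 to 7524 in H1. MT-CYB differed by 1.05 (SE 0.12, adjusted p = 2.74e-05). The order outside complex I was not the same with each hairpin. MT-ATP8 was higher in MEL1 by a log2 of 2.27 with SCR, 1.47 with KD1 and 1.40 with KD2. MT-ATP6 was higher by 1.47, 1.41 and 1.32, and MT-CO3 by 0.94, 1.67 and 1.29. MEL1 has 1 library each of SCR and KD2. In the mean over the matched hairpins, the differences ran from 1.93-fold for MT-ND6 to 3.65-fold for MT-ND1.

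The rRNAs differed least. MT-RNR2 was at 10668 CPM in MEL1 SCR, 6690 and 8926 in KD1 and 7178 in KD2, against 4841 to 7756 in H1, and MT-RNR1 was at 1738, 1007, 1605 and 1027 against 728 to 1248. Both were called, at log2 differences of 0.51 (SE 0.15, edgeR adjusted p = 0.0133) and 0.48 (SE 0.15, 0.0252). Neither was called over the KD1 and KD2 libraries alone, an alternative chosen after seeing the data, where the differences were 0.34 (edgeR adjusted p = 0.141) and 0.33 (0.178) and that of MT-ND6 was 0.98 (0.0765). MT-RNR1 was also not called without the first H1 KD2 library. The other 12 mRNAs stayed called there, with MT-ND1 at 1.87 (2.03e-06).

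**Figure D3:**
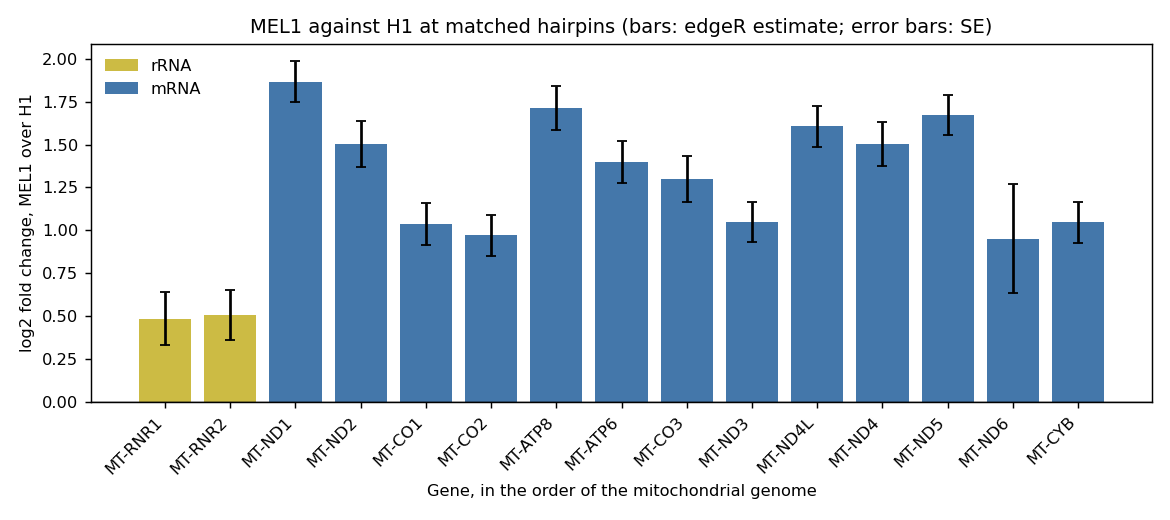
Bars give the log2 fold change of MEL1 over H1 at matched hairpins and error bars its standard error, for the rRNAs (yellow) and mRNAs (blue) in the order of the mitochondrial genome. The rRNAs stand at 0.48 and 0.51, and the mRNAs run from 0.95 (MT-ND6) to 1.87 (MT-ND1).

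The balance between mRNAs differed between the lines as well. Complex I mRNAs held 26.9% of mitochondrial mRNA counts in MEL1 SCR, 23.2% and 21.7% in KD1 and 26.3% in KD2, against 19.4% to 21.4% in H1. Complex IV mRNAs held 55.9%, 62.2%, 63.9% and 58.6% in the same MEL1 libraries and 63.6% to 66.3% in H1, where 1 MEL1 KD1 library fell within the H1 range. Complex III (MT-CYB) held 4.66% to 5.49% in MEL1 and 5.47% to 6.50% in H1, and complex V 9.35% to 11.96% against 8.31% to 9.39%. MT-ND1 alone held 2.52% to 3.51% of mRNA counts in MEL1 and 1.56% to 2.46% in H1, without overlap. MT-CO2 did the reverse, at 15.4% to 17.1% in MEL1 and 18.3% to 20.1% in H1.

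Ratios of 2 transcripts put the same balance on a scale that needs no library scaling. MT-ND1 counts per MT-RNR2 count were 0.191 in MEL1 SCR, 0.182 and 0.156 in KD1 and 0.269 in KD2, against 0.0461 to 0.127 in H1. MT-CYB counts per MT-ND1 count were 1.56 to 1.87 in MEL1 and 2.46 to 3.52 in H1. Neither ratio overlapped between lines. An exact two-sided permutation test of the line labels within SCR, KD1 and KD2 gave p = 0.0185 for each, the smallest p its 54 arrangements allow. Adjusted over the 14 tests made (7 ratios, 2 contrasts), both were at 0.130, and no ratio passed. The balance of the rRNAs overlapped between lines, with MT-RNR1 at 0.143 to 0.180 of MT-RNR2 in MEL1 and 0.136 to 0.186 in H1. The light-strand ratio MT-ND6 to MT-CYB was 0.0218 to 0.0407 in MEL1 and 0.0251 to 0.0533 in H1.

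**Figure D4:**
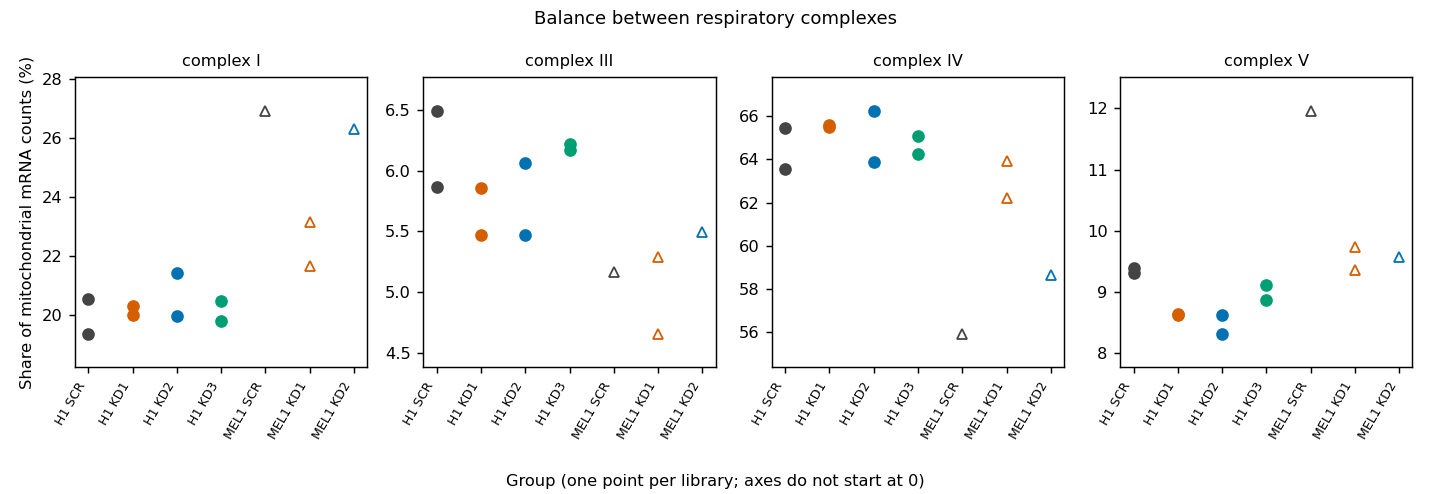
Each point is the share of a library's mitochondrial mRNA counts, in percent, held by the mRNAs of 1 respiratory complex, by group, on axes that do not start at 0. Complex I lies at 21.7% to 26.9% in MEL1 and 19.4% to 21.4% in H1, and complex V stands at 11.96% in the MEL1 SCR library and at 8.31% to 9.74% in the others.

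Genes that mark cell types moved with the line too, beside 49.1% of all genes called between the lines (23.0% as higher in MEL1). Summed levels of 8 pluripotency markers were 2576 to 4297 CPM in MEL1 and 1626 to 2077 in H1, and 7 of 8 were called higher and 1 lower in MEL1, among them NANOG (log2 3.93) and POU5F1 (3.72). All 8 neural progenitor markers were called lower, with sums of 451 to 647 against 988 to 1411 CPM. These sums understate the difference of most members, whose median log2 was -6.42. PAX6 was at 0.204 to 2.92 CPM in MEL1 and 95.8 to 224 in H1. NES, which weighs most in the sums, was at 351 to 516 and 431 to 626. All 6 neuron markers were also called lower, with sums of 127 to 172 against 381 to 597 CPM. Neural crest and mesenchyme markers summed to 227 to 436 CPM in MEL1 and 88.2 to 211 in H1, with 6 of 8 called higher and 1 lower. Of other markers, those of cardiomyocytes, which are rich in mitochondria, summed to 6.10 to 18.6 CPM in all libraries, with MYH7, MYL7, TTN, NKX2-5 and MYH6 under 1 CPM on average. The 8 endoderm and liver markers averaged under 1 CPM each (sums of at most 16.1). Endothelium and blood markers summed to 64.0 to 112 CPM in MEL1 and 66.8 to 164 in H1. The part of cell types in the line difference was not tested.

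Nuclear genes for mitochondrial proteins were compared between the lines for context. Of 80 nuclear-encoded subunits of complexes I to V, 51 were called higher in MEL1 and 3 lower, beside 23.0% of all genes called higher and 49.1% called in either direction. By complex, the calls were 19 higher and 2 lower of 37 for complex I, 3 and 0 of 4 for complex II, 6 and 0 of 9 for complex III, 10 and 0 of 12 for complex IV, and 13 and 1 of 18 for complex V. Their median log2 differences were 0.30, 0.54, 0.32, 0.51 and 0.40, smaller than that of the mitochondrial mRNAs. Complex I subunits NDUFA9 (log2 1.52) and NDUFB9 (0.92) were higher, whereas NDUFB8 was lower (-0.95). ATP5PD (1.57) and ATP5MC1 (1.43) of ATP synthase were higher.

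Factors of mitochondrial gene expression were counted against the same shares of all genes. The mitochondrial ribosome had 30 higher and 2 lower of 49 large-subunit proteins and 24 higher and 0 lower of 32 small-subunit proteins. RNA processing and stability factors had 18 higher and 1 lower of 26, with C1QBP at 1.65 and the tRNA 3′-end nuclease ELAC2 at 1.12. RNA modification enzymes had 13 higher and 1 lower of 23, including the rRNA methyltransferases MRM1 (1.82) and MRM3 (1.23). Transcription factors and cofactors had 6 higher and 2 lower of 10. TEFM was higher by 0.91 (edgeR adjusted p = 2.12e-05), TFAM by 0.63 (0.000945) and LRPPRC by 0.61 (0.000265), whereas POLRMT was lower by 0.39 (log2 -0.39, 0.00928). TFAM was at 119, 85.0, 76.1 and 86.2 CPM in MEL1 and at 44.7 to 90.0 in H1. Replication factors had 8 higher and 2 lower of 13. Mitochondrial tRNA synthetases had 8 higher and 2 lower of 20, so 10 of 20 were called, near the 49.1% of all genes. Regulators of mitochondrial biogenesis had 4 higher and 3 lower of 10. Genes of the mitochondrial stress response had 5 higher and 8 lower of 22, where 6511 of the 24898 genes tested were called lower. Their median log2 difference was -0.15, against -0.09 over all genes.

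Depletion of METTL14 gave no called change in any mitochondrial mRNA or rRNA over both lines. All 9 knockdown libraries were set against the 3 SCR libraries with the line as a covariate. MT-TF was the 1 gene called among the 32 tested, where 0.213% of all genes were called (0.157% lower). Of the mRNAs, 12 of 13 had lower estimates (median log2 -0.26, against 0.05 over all genes), 0 were called by edgeR, and 4 had an unadjusted p under 0.05, namely MT-ATP8, MT-ND3, MT-ND2 and MT-ATP6. Their log2 differences were -0.62 (SE 0.18, edgeR adjusted p = 0.131), -0.44 (0.14, 0.157), -0.47 (0.18, 0.227) and -0.34 (0.14, 0.249). Without the MEL1 SCR library the estimate for MT-ATP8 was -0.28 (adjusted p = 0.498). MT-CO1 was at 0.02 (SE 0.14). DESeq2 called MT-ATP8, MT-ND3, MT-TC and MT-TF, and a fit of group means called these and MT-ND2, but these fits also called 1246 and 2688 of the 24898 genes. MT-RNR1 was at -0.23 (SE 0.17) and MT-RNR2 at -0.14 (SE 0.16).

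MT-ND3 was the 1 mRNA that stood below every SCR library of its line in all 9 knockdown libraries, which 3.96% of all genes did. It was at 483 and 556 CPM in H1 SCR, 355 and 296 in KD1, 466 and 395 in KD2 and 400 and 438 in KD3. In MEL1 it was at 1074 CPM in SCR, 602 and 878 in KD1 and 809 in KD2. The H1 KD1 libraries were the lowest of that line. Among the tRNAs, MT-TF, MT-TQ and MT-TH met the same rule.

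Fold changes of MT-TF rested on few counts. Its estimated counts were 62 and 90 in H1 SCR, 30 and 36 in KD1, 48 and 32 in KD2 and 27 and 37 in KD3. In MEL1 they were 55 in SCR, from fewer total counts, 34 and 20 in KD1 and 47 in KD2. The log2 difference was -1.52 over both lines (SE 0.27, edgeR adjusted p = 0.0387) and -1.17 for the average of the H1 hairpins (SE 0.29, 0.0349). Adjusted p-values over the alternative settings ran from 9.46e-05 to 0.239 for both lines and from 0.0164 to 0.282 for the H1 average. The call over both lines was lost on leaving out any of 9 of the 12 libraries, and was kept without the second MEL1 KD1, the MEL1 KD2 or the first H1 KD2 library. The H1 call was lost on leaving out any H1 library except the first of KD2. All 22 tRNAs together had 169 to 599 estimated counts a library, at most 0.00259% of the total. MT-TG and MT-TR were listed at 0 in every library, where 3 counts would be 0.0690 to 0.188 CPM before scaling.

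In H1, the average of the 3 hairpins called MT-TF and no other mitochondrial gene, where 7.16% of all genes were called (4.93% lower). All 17 tested tRNAs again had lower estimates (median log2 -1.03, against 0.01 over all genes). MT-CO3 and MT-ND3 were below both SCR libraries in all 6 knockdown libraries, as were 11.7% of all genes. MT-CO3 was at 5137 and 5744 CPM in SCR, 3604 and 2921 in KD1, 4967 and 3624 in KD2, and 3912 and 4329 in KD3. Its average log2 difference was -0.49 (SE 0.16, edgeR adjusted p = 0.0933). DESeq2 called MT-CO3, MT-ND2, MT-ND3 and MT-TF, and 10.8% of all genes.

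With KD1 in H1, 4 of the 13 mRNAs were called lower and none higher, against a background of 11.1% called (6.83% lower). MT-ND2 was at 1139 and 1323 CPM in SCR and at 734 and 636 in KD1, and fell by 0.85 on the log2 scale (SE 0.21, edgeR adjusted p = 0.0256). MT-ND1 was at 526 and 594 against 358 and 322, and fell by 0.72 (SE 0.19, 0.0329). MT-CO3 fell by 0.74 (SE 0.21, 0.0423) and MT-ND3 by 0.67 (SE 0.18, 0.0363). For each of the 4 and for MT-CO2, both KD1 libraries were below the other 6 H1 libraries, as were 11.7% of all genes. For 9 of the 13 mRNAs and 15 of the 17 tested tRNAs both KD1 libraries were below both SCR libraries, as were 28.8% of all genes. MT-CO1 (0.08, SE 0.19), MT-ND4 (-0.01, SE 0.20), MT-ND5 (-0.01, SE 0.18), MT-RNR1 (0.06, SE 0.24) and MT-RNR2 (0.09, SE 0.22) had estimates near 0 and were not called. Estimates for MT-CO2, MT-CYB, MT-ATP6 and MT-ATP8 lay between -0.44 and -0.50, with unadjusted p-values of 0.0271 to 0.0409 and adjusted p-values of 0.129 to 0.166.

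The KD1 calls were close to the threshold. None of the 4 was called without the second SCR library or without either KD1 library, and MT-ND2 alone (log2 -0.92, edgeR adjusted p = 0.0388) was called without the first SCR library. The estimates without 1 of these libraries were -0.73 to -0.92 for MT-ND2, -0.63 to -0.78 for MT-ND1, -0.59 to -0.86 for MT-CO3 and -0.55 to -0.78 for MT-ND3. Calls over all genes fell from 2758 to 393 without the second SCR library and to 206 and 439 without the first and second KD1 library. After trends with GC content and length were removed library by library, MT-ND3 stayed called (-0.41, adjusted p = 0.0314), and MT-ND2 (-0.56, 0.0552), MT-CO3 (-0.53, 0.0584) and MT-ND1 (-0.53, 0.102) did not. The correlation with GC content was 0.30 and 0.56 in the KD1 libraries and 0.22 and -0.42 in SCR. Beside this, marker genes were counted with KD1, where 11.1% of all genes were called and 6.83% were called lower. Of 8 pluripotency markers 4 were called lower, although their sums were 1929 and 1699 CPM against 1737 and 1626 in SCR. Of 8 neural progenitor markers 3 were called higher (sums of 1118 and 1157 against 1076 and 988). Of 7 cardiomyocyte markers tested 2 were called higher (sums of 18.3 and 17.1 against 10.5 and 6.91 CPM), and of 6 endothelium and blood markers 2 were called lower (85.6 and 91.7 against 160 and 164). Of 4 nuclear-retained RNAs 2 were called higher (sums of 386 and 339 against 265 and 324), among them MALAT1, at 137 and 85.1 CPM against 33.4 and 42.5. The part of GC content, cell types and nuclear-retained RNA in the KD1 calls was not tested further.

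No mitochondrial gene was called with KD2 or KD3 in H1. Backgrounds were 1.54% and 2.98% of all genes, and at an unadjusted p under 0.05 edgeR gave 0 mRNAs, 0 rRNAs and 1 tRNA (MT-TF) with KD2 and likewise with KD3, and DESeq2 called 0 in each. MT-ND1 was at -0.01 (SE 0.19) with KD2 and -0.33 (SE 0.19) with KD3, and MT-ND2 at -0.28 (SE 0.20) and -0.26 (SE 0.20). The difference between the 3 hairpins was itself tested, and 0 mitochondrial genes were called (background 3.54%), with unadjusted p-values of 0.00969 for MT-ND1 and 0.0276 for MT-ND2 and adjusted ones of 0.115 and 0.187. DESeq2 called both in that test, and 8.93% of all genes. At an unadjusted p under 0.05 edgeR gave 2 mRNAs and 1 tRNA. The 3 hairpin comparisons share the SCR libraries.

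**Figure D5:**
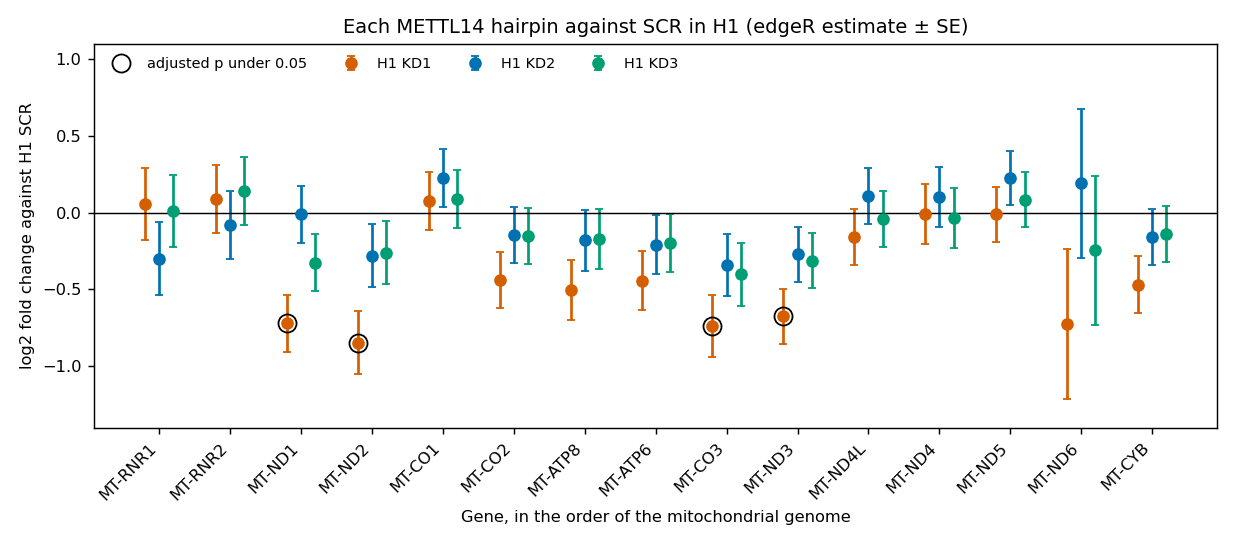
Points give the log2 fold change of each hairpin against SCR in H1 with its standard error, by gene in the order of the mitochondrial genome, and rings mark an adjusted p under 0.05. The rings are on KD1 at MT-ND1, MT-ND2, MT-CO3 and MT-ND3 (-0.67 to -0.85), while MT-CO1, MT-ND4, MT-ND5 and the rRNAs lie near 0.

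The nuclear-encoded subunits of each complex had negative median log2 differences with each hairpin in H1. Of the 80 nuclear-encoded subunits of complexes I to V, 28 were called lower with KD1, where 6.83% of all genes were, and 26 for the average of the hairpins, where 4.93% were. With KD2 and KD3, 2 and 3 were called, beside 1.54% and 2.98% of all genes. The test between hairpins called 1 of the 80, beside 3.54% of all genes. Median log2 differences with KD1, KD2 and KD3 were -0.43, -0.41 and -0.31 for complex I, -0.29, -0.37 and -0.29 for complex III, -0.41, -0.43 and -0.35 for complex IV, and -0.52, -0.43 and -0.33 for complex V. With KD1, complex I had 13 of 37 lower, led by NDUFB3 (log2 -1.07) and NDUFB1 (-0.95), complex V 8 of 18 (ATP5F1C -0.73) and complex IV 4 of 12 (COX7B -0.75). The large and small subunits of the mitochondrial ribosome had 17 of 49 and 8 of 32 lower, where 6.83% of all genes were. RNA processing factors had 8 of 26 lower (SLIRP, the partner of LRPPRC, -0.92), and transcription factors 3 of 10. Replication factors had 4 lower and 1 higher of 13, and mitochondrial stress response genes 4 lower of 22. Other lists had fewer: RNA modification enzymes had 2 of 23 lower, mitochondrial tRNA synthetases 2 of 20 and regulators of mitochondrial biogenesis 0 of 10. TEFM (-0.79, edgeR adjusted p = 0.0115) and TFAM (-0.74, 0.0247) fell, LRPPRC was at -0.03 (0.940) and POLRMT at 0.37 (0.152). TFAM was at 60.8 and 90.0 CPM in SCR and 44.7 and 45.8 in KD1.

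In MEL1, knockdown could be compared with 1 SCR library only, so no test was made within this line. All 3 knockdown libraries were below it for 10 of 13 mRNAs, both rRNAs and 14 of 17 tested tRNAs, as were 25.7% of all genes. MT-ATP8 stood apart: it was at 1590 CPM in MEL1 SCR and at 587, 702 and 767 in the knockdown libraries, log2 differences of -1.30 with KD1 and -1.05 with KD2. It held 2.59% of mitochondrial mRNA counts in MEL1 SCR, 1.27% to 1.39% in the MEL1 knockdown libraries and 1.09% to 1.32% in H1. Its ratio to MT-ATP6, the gene it overlaps in the sequence above, was 0.276 in MEL1 SCR and 0.145 to 0.171 in all 11 other libraries. MT-ND4L per MT-ND4 was 0.149 in MEL1 SCR and 0.110 to 0.128 elsewhere. MT-ATP8 and MT-ND4L are the shortest of the mRNAs, at 207 and 297 bases. The MEL1 SCR library also had the lowest correlation with GC content within MEL1 and the smallest total of all libraries. The part of these features was not tested.

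A difference in the knockdown effect between lines could be tested only with the spread of the other groups taken for MEL1 SCR and MEL1 KD2, which have 1 library each. The test compared the mean effect of KD1 and KD2 between lines, and 0 of 32 genes were called by edgeR (background 0.598%), and 2 mRNAs had an unadjusted p under 0.05. MT-ATP8 was at -0.84 (SE 0.28, edgeR adjusted p = 0.173) and MT-ND5 at -0.63 (SE 0.26, 0.242), MEL1 minus H1. DESeq2 called 1 gene, MT-ATP8, and 3.02% of all genes. MT-CO3 was at 0.53 (SE 0.30, adjusted p = 0.396) and the rRNAs at -0.47 and -0.52. The median over all genes tested was 0.11.

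Copies of mitochondrial genes in the nucleus can take reads from their sources. The table held 404 such copies by symbol, of which 360 were at 0 in every library and 4 had a mean of at least 10 estimated counts. MTATP6P1, on chromosome 1 at 633696-634376, had a mean of 11783 counts and took 9.82% to 11.7% of the sum of itself and MT-ATP6, to which 671 of its 681 bases are identical (98.5%). MTND2P28 had a mean of 644 counts (0.960% to 2.23% of its pair), MTCO1P12 a mean of 314 (0.0805% to 0.127%) and MTND1P23 a mean of 103 (0.176% to 0.564%). Of the 31-base words in a gene, the share found elsewhere among annotated transcripts was 66.7% for MT-CO1, 63.7% for MT-ATP6, 3.5% for MT-ND3 and 0% for every tRNA. Adding copies to their sources left the same 20 genes called between lines and the same 4 with KD1.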

How the data were processed

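The authors deposited estimated counts per Ensembl gene for 12 libraries (TruSeq Stranded Total, NovaSeq, per the labels); fastp and kallisto are named in the submitters' processing notes, and versions, annotation and strand setting are not given in the sources used here. Between 14.8% and 20.8% of values in a library were not whole. Symbols came from a name table that held 59243 of 65969 identifiers, and genes without an entry held 2.17% to 2.84% of counts. Coordinates, lengths and sequences are from GENCODE release 29 on GRCh38.

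Counts were rounded, filtered with filterByExpr (7 groups) and scaled by TMM. Tests were robust quasi-likelihood tests in edgeR 4.0.16 (limma 3.58.1, R 4.3.3) over all 24898 genes, with cell line and knockdown as terms (9 residual degrees of freedom) or 7 group means (5). Calls are adjusted p-values under 0.05. SE is the log2 fold change over the square root of F. The fits were also run on simulated data. Its planted changes were larger than the knockdown estimates of the mRNAs, and it held no GC trends. It therefore cannot show how reliable the calls reported here are. Share comparisons have no test. Replicate pairs differed beyond counting noise (chi-square per degree of freedom 22.9 to 34.3), so none was counted as a duplicate. Alternatives were other scalings and filters, DESeq2 1.42.0, a non-robust fit, copies added, removal of trends on GC content and length, H1 by itself, group means and leaving out each library; KD1 and KD2 libraries only was added after seeing the data.

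Named were all mitochondrial mRNAs and rRNAs, tested tRNAs that a result concerns, METTL14, POLRMT, TFAM, TEFM, LRPPRC, up to 4 called members per list and the 4 most abundant nuclear copies. Members and lists were chosen with earlier results of these data known.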

Additional observations from a re-analysis of the deposited data

Results flagged for a closer look

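Among 18 results tested for an outlying library in the 6 H1 knockdown libraries, chance flags about 1 in 20, and 1 was found. MT-ND6 was at 89.0 CPM in the first KD2 library, the next highest library was at 50.0 CPM and the lowest at 30.0, so the gap was 0.660 of the whole range, above the critical value of 0.625 for 6 libraries. This library also had the highest MT-ND1 (679 CPM) and MT-ND5 (889 CPM) of the 6. The 6 libraries span 3 hairpins.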

How the results depend on the processing

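The line difference kept its direction in the 13 mRNAs and both rRNAs under every alternative run. All 12 mRNAs other than MT-ND6 stayed called, and MT-ND6 was called in 11 of 21. Genes called numbered 18 to 20 without 1 library. Without MEL1 SCR or MEL1 KD2 the line and interaction contrasts could not be fitted.

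Knockdown calls moved. Over both lines 1 gene was called, against 0 with total counts only, 4 with DESeq2, 5 with group means, and 0 to 1 without 1 library. For the H1 average (1 called) the counts were 0 with total counts only, 5 without a filter, 4 with DESeq2, 2 with GC and length trends removed, 2 with H1 by itself, and 0 to 3 without 1 library. For KD1 (4 called) they were 2 with upper-quartile scaling, 11 without a filter, 2 with trends removed and 0 to 4 without 1 library. KD3 had 1 with trends removed (0 otherwise called). Between hairpins (0 called) there were 3 without a filter, 2 with DESeq2 and 0 to 1 without 1 library. The interaction (0 called) had 2 without a filter and 1 with DESeq2. The cause was not tested.

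Of the ratios, 4 changed sign without 1 library, and none of these passed its test: MT-ND6/MT-CYB with knockdown (-0.19 to 0.16) and by line (-0.18 to 0.12), MT-ND6/MT-ND5 with knockdown (-0.33 to 0.15) and MT-RNR1/MT-RNR2 by line (-0.0783 to 0.00723). No paired analysis was possible because the labels carry no replicate numbers. Total counts only moved the median of all genes between lines to -0.21 from -0.09. The 22 tRNAs had 169 to 599 estimated counts a library.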
